A study of Mus musculus with 2 samples.

Results

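Protein phosphatase genes were examined in a list of C-to-U editing sites from mouse cortical nuclei that were sorted for NeuN, a neuronal marker. The members are all genes of the list whose symbols begin with Ppp1 to Ppp6, Ppm1, Ptpn with a number, Ptpr with a letter or Dusp with a number, leaving out Ptprz1 and Dusp1. This rule uses names only and found 81 genes with 250 sites, out of 6929 genes with 17755 sites in the whole list. The list comes from 2 libraries of 1 group: NeuN-stained, flow-sorted nuclei from the cortex of APOBEC1-YTH mice given tamoxifen. Animals were 10 weeks old at the first dose and received 20 mg/kg at intervals of 24 h for 5 days, with collection 7 days after the last dose and fixation of the nuclei in 50% ethanol. The labels name neither the promoter that drives the transgene nor a Cre line, and do not say whether a library came from 1 animal or from a pool. One label field names polyA RNA and the protocol a stranded total RNA kit. APOBEC1-YTH joins a cytidine deaminase to a domain that binds N6-methyladenosine (m6A), so that cytidines near m6A are read as T in the cDNA. The value of each site is its editing level, the percentage of edited reads, and 1 combined value per site stands for both libraries. No spread between libraries can therefore be given, and every SD below is across the sites of a gene. Coverage is not in the list and the depth is unknown.

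Protein phosphatases remove phosphate from serine and threonine (the PPP and PPM families) or from tyrosine (the PTP family), and the dual-specificity phosphatases (DUSPs) act on both. PP1, PP2A and their relatives work as a small catalytic subunit joined to one of many regulatory subunits that choose the substrate and the place in the cell. In neurons, PP1 and the calcium-activated phosphatase calcineurin act in dendritic spines in long-term depression, receptor-type tyrosine phosphatases organise synapses and axon growth, and DUSPs switch off MAP kinases.

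The genome sequence at most sites was not used here, but RefSeq promoter windows (GRCm38.p6, the assembly that mm10 names) cover 3 of the 250 member sites and show the bases that were edited. Each window is written 5′ to 3′ on the strand of the gene, with the edited C in capitals. The Dusp11 site (chr6:85961618-85961661, minus strand, level 2.63%) lay 36 nt past the RefSeq start of the window. The Ppp1r18 site (chr17:35866154-35866214, plus strand, 5.71%) lay 67 nt before the start used for its window and 591 nt inside the gene's span, and the Ppp2r5c site (chr12:110447272-110447302, plus strand, 5.13%) 128 nt inside the span, at the first base of its window.
Dusp11: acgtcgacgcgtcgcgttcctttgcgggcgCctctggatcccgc
Ppp1r18: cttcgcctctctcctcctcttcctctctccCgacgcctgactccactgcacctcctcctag
Ppp2r5c: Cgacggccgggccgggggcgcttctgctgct

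In Ppp1r18 and Ppp2r5c the edited C was followed directly by GAC, which holds the A-C pair of the usual m6A context. Neither GAC is part of a match to DRACH, the m6A consensus, which allows no C at its first base. The window of Ppp2r5c held 0 DRACH matches, and the 1 match in that of Ppp1r18 lies farther 3′. On the transcript strand, the only strand searched, GAC stood directly after the edited C in 4 of 137 such sites of the whole list (2.92%), and after 0.712% of all cytidines of the windows. Of those 4 sites, 2 are the member sites that prompted the count. G, the first base of GAC, followed 60 of 141 edited cytidines in the windows (42.6%) and 24.1% of all cytidines there. GAC or AAC within 10 nt was about as frequent around edited cytidines (41 of 115, 35.7%) as around any cytidine (33.96%). The base before the edited C was G in Dusp11 and C in Ppp1r18. Over the whole list, A preceded 16 of 144 edited cytidines in promoter windows (11.1%) and 14.3% of all cytidines there. G preceded 77 of the 144 edited cytidines (53.5%). How often G precedes any cytidine of the windows was not counted, so this share has no comparison. The edited base was C in all 145 sites that a window of their own gene covered. A match of letters is a description and not evidence of a methylated adenosine.

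A majority of the phosphatase genes carried a site. RefSeq holds 149 protein-coding genes that meet the name rule, and 81 of them (54.4%, exact 95% interval 46.0% to 62.5%) had at least 1 site, beside 28.3% of all protein-coding genes. The median span was 47822 bp in genes with a site and 17340 bp in the 68 without one. A gene can appear only where enough of its RNA was sequenced, and expression was not measured here, so more RNA and more methylation cannot be told apart. Of the 81 genes, 29 had a single site (35.8%, beside 49.2% of all genes in the list) and 16 had 5 or more (19.8%, beside 13.5%). Those 16 genes held 126 of the 250 sites. The number of sites per gene followed the log10 length of the span with Spearman's rho = 0.30 over the 81 genes, which share the same libraries.

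Editing levels of the members were low, like those of the list as a whole. The median over the 250 sites was 3.12% (quartiles 1.96% and 5.88%, range 1% to 20.6%), beside 3.64% for the 17505 sites of other genes. In 20 genes, 26 sites stood at 10% or higher (10.4%, beside 14.9% of all sites), and 5 sites stood at 20% or higher (2%, beside 2.02%). The exact 95% interval of the first share ran from 6.91% to 14.9%.

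**Figure D1:**
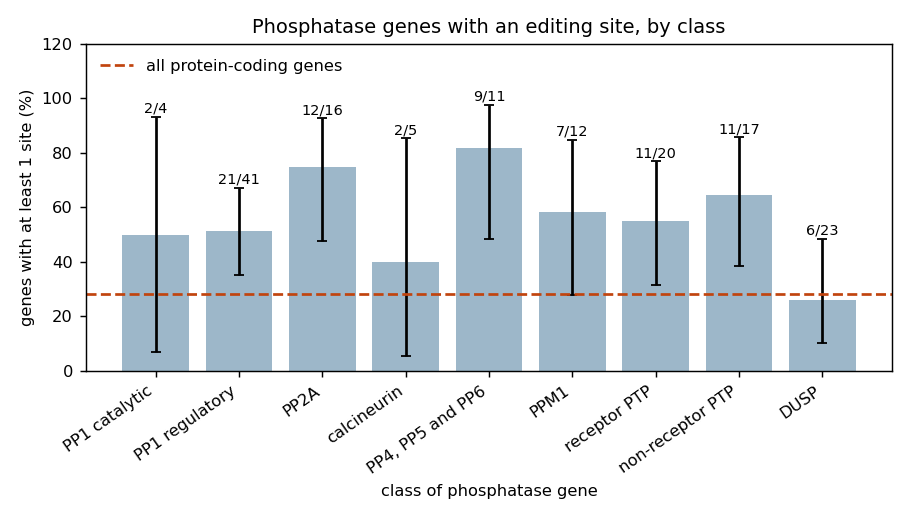
Share of the genes of each phosphatase class with at least 1 site (bars, in percent), with exact 95% intervals that cover counting of genes only and the count above each bar; the dashed line is the share of all protein-coding genes, 28.3%. The PP4, PP5 and PP6 class (9 of 11) and PP2A (12 of 16) have the tallest bars, and DUSP (6 of 23) the shortest.

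The share of genes with a site ran from 26.1% to 81.8% over the classes. For PP4, PP5 and PP6 together 9 of 11 genes had a site (81.8%, exact 95% interval 48.2% to 97.7%), and for PP2A 12 of 16 (75%, 47.6% to 92.7%). Non-receptor PTPs followed with 11 of 17, PPM1 with 7 of 12, receptor PTPs with 11 of 20 and PP1 regulatory subunits with 21 of 41. Of the DUSP genes 6 of 23 had one (26.1%, 10.2% to 48.4%), close to the share over all protein-coding genes. The intervals of neighbouring classes in this order overlapped widely.

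Among the catalytic subunits of PP1, the gene of the beta form stood above its relatives in both number of sites and level. Ppp1cb (chromosome 5, 32458848 to 32493713) had 6 sites at 6.90%, 16.7%, 20.0%, 14.3%, 10.0% and 10.5%, a mean of 13.1% ± 4.83 (SD across sites, n = 6). Of the 26 member sites at 10% or more, 5 were in this gene. The gamma form Ppp1cc had 2 sites, at 3.11% and 2.02%, both lower than every site of Ppp1cb. They lay 6344 and 16770 nt from the 3′ end of the span, whereas 5 of the 6 Ppp1cb sites were in the last 5 kb. Unlike parts of the 2 genes are therefore compared. The alpha form Ppp1ca and Ppp1ccb had 0 sites. Coverage of these genes is not listed, so high levels from few reads cannot be told apart from heavier editing. The parts of depth and of position in the difference between Ppp1cb and Ppp1cc were not tested.

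PP1 regulatory subunits had 51 sites in 21 genes, with a median of 3.70%. Neurabin-1 (Ppp1r9a, chromosome 6, 4902872 to 5165661), a scaffold that holds PP1 on actin in dendritic spines, led with 9 sites at 4.64% ± 3.18. Its 5 sites in the last 5 kb of the span lay at 8%, 8%, 5.41%, 9.09% and 4.88%. The other 4, from 5482 to 101627 nt before the 3′ end, were all lower, at 1.55%, 1.46%, 1.08% and 2.26%. Its paralogue spinophilin (Ppp1r9b) had 2 sites, at 3.28% and 3.36%, both over 10 kb from the end.

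The myosin-targeting subunits carried low levels. Ppp1r12a (MYPT1) had 3 sites at 4.26%, 1.48% and 3.57%, Ppp1r12b 3 at 1.90%, 1.87% and 1.87%, and Ppp1r16b, a relative found in endothelium, 3 at 2.99%, 5.26% and 1.12%. The subunits that bring PP1 to the translation factor eIF2alpha after stress were higher: Ppp1r15a (GADD34) had 3 sites at 6.67%, 8% and 6.06% and Ppp1r15b 2 at 4.35% and 9.09%. The Ppp1r15a site at 6.67% lies under Tulp2, a gene of the opposite strand; how strand was used in counting is not stated, so reads of such pairs may not be told apart. PNUTS (Ppp1r10), which holds PP1 in the nucleus, had 3 sites at 2.04%, 4.17% and 9.38%. Among glycogen-targeting subunits 4 of 7 genes had a site, from 2.33% in Ppp1r3g to 18.2% in Ppp1r3d. That highest site also lies under Fam217b, which runs on the opposite strand. Ppp1r7 (SDS22, a partner needed for PP1 assembly) had 13.3% inside its span and 8% at 4784 nt past its RefSeq end.

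Of 11 genes for small inhibitor proteins of PP1, 3 had a site, a share close to the 28.3% of all protein-coding genes: Ppp1r2 (5.56% and 8%), Ppp1r14b (1.74% and 2.50%) and Ppp1r14a (1.31%). RefSeq lists several Ppp1r2 pseudogenes, with which reads of Ppp1r2 could be shared, so its values are uncertain. The inhibitors Ppp1r1a and Ppp1r1b (DARPP-32, the dopamine-regulated inhibitor of striatal neurons) had 0 sites.

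PP2A combines a catalytic subunit, a scaffold and a B-type subunit that sets the target. Ppp2ca (chromosome 11, 52098824 to 52122749), the alpha catalytic subunit, had 14 sites, all in the last 5 kb, at 2.31% ± 1.23. Of these, 13 lay between 262 and 817 nt from the 3′ end, at 1.06% to 5.56%, and 1 at 4011 nt with 2.99%. The beta catalytic subunit gene Ppp2cb, which encodes a nearly identical protein, had 1 site at 4.65%, inside the range of Ppp2ca. Both scaffold genes, Ppp2r1a and Ppp2r1b, had 0 sites.

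All 4 genes of the B family of PP2A had a site, with a median of 7.74% over 12 sites. Ppp2r2a had 6 sites, of which the 4 nearest the end lay at 8.33%, 8.70%, 8.70% and 4.17%, and the 2 farther in at 1.47% and 1.04%. Ppp2r2c, a form known from brain, had 3 sites at 7.14%, 6.06% and 11.1%, Ppp2r2d 2 at 4.08% and 12.5%, and Ppp2r2b 1 at 12.5%. All 5 genes of the B' family also had a site, 6 in all, from 1.45% to 5.71% with a median of 2.76%. Ppp2r3a, of the B'' family, had 4 sites from 2.63% to 3.51%, each between 89308 and 107721 nt from the 3′ end.

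Calcineurin was represented almost wholly by the alpha catalytic subunit. Ppp3ca (chromosome 3, 136669714 to 136937727) had 8 sites at 4.59% ± 3.36. In the last 5 kb they were at 8.70%, 5.66%, 10.0%, 4.55% and 3.64%, and elsewhere at 1.49%, 1.08% and 1.57%, the last pair near the 5′ end. Ppp3cc had 1 site at 4%, and 0 sites were listed for the catalytic gene Ppp3cb and the regulatory genes Ppp3r1 and Ppp3r2.

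The catalytic subunit genes of PP4, PP5 and PP6 all had a site. Ppp4c had 2, 25 nt apart, at 3.85% and 3.77%, Ppp5c 2 at 3.03% and 2.60%, and Ppp6c 1 at 12.5%. The PP6 regulatory genes Ppp6r1 (5 sites, 1.84% ± 0.37) and Ppp6r3 (5 sites, 2.06% ± 0.93) carried more sites at lower levels. Ppp6r3 held 3 sites within 23 nt, over 63 kb from the 3′ end, at 1.45%, 1.44% and 1.60%. Ppp4r3b, a targeting subunit of PP4, had 3 sites at 5.26%, 1.94% and 3.23%.

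PPM1 phosphatases are single-chain enzymes that depend on magnesium or manganese. Ppm1b led with 7 sites at 3.48% ± 3.71. A pair at 7340 and 7533 nt from the end stood at 9.09% and 8.70%, and the other 5 sites lay between 1% and 1.71%. Ppm1e, which dephosphorylates calcium/calmodulin-dependent kinases, had 13.3% and 6.25% near the 3′ end and 2.08% and 2.35% in the first 1 kb. Its terminal sites lie under Trim37 and its first sites under Gm33937, both genes of the opposite strand. Ppm1a had 2 sites 9 nt apart at 2.20% and 2.25%, and Ppm1l 1 site at 18.2%. Ppm1d, a phosphatase of the DNA damage response, had 0.

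Receptor-type tyrosine phosphatases held the most sites of any class, 56 in 11 genes, at a median of 2.57%. Ptprb (VE-PTP, chromosome 10, 116275502 to 116389538), the receptor phosphatase of endothelial cells, was first among all members with 17 sites at 5.33% ± 5.26. A run of 10 of its sites fell within 296 nt, between 1593 and 1888 nt from the 3′ end, at 1.76% to 20.6%. The highest, 20.6%, had neighbours 5 nt away at 3.85% and 12 nt away at 3.70%. The 6 sites outside the last 5 kb lay between 2.53% and 3.92%. Endothelial and pericyte markers were also in the list although nuclei were sorted for NeuN: all 6 of the markers looked up (Cldn5, Flt1, Cdh5, Pecam1, Rgs5 and Pdgfrb) had sites, 57 in total with a range of 3 to 19 per gene. How far RNA of vascular cells contributed to the Ptprb sites was not tested, and in bulk nuclei fewer cells of a type and less RNA per cell cannot be told apart.

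In the other receptor genes most sites lay far from the 3′ end. Outside Ptprb, 6 of 38 receptor sites (15.8%) were in the last 5 kb, and the median distance from the end was 85358 nt. With Ptprb the share was 17 of 55 (30.9%), beside 49.7% of all sites. The shares of PPM1 (23.5%) and non-receptor PTP genes (31.4%) were also below that of all sites. Ptprd, a presynaptic organiser of the LAR group whose span is 2270506 bp, had 8 sites. One, 3263 nt from the end, was at 9.09%, and the other 7 were spread from 14094 to 199368 nt at 1.17% to 2.53%. Ptprg, which binds contactins, had 8 sites at 3.17% ± 1.85 with 0 in the last 5 kb; 4 of them lay within 79 nt, at 2.60%, 2.53%, 1.55% and 1.43%. The homophilic adhesion receptors Ptprt (6 sites, 2.33% ± 1.23) and Ptprm (4 sites, 3% ± 1.89) each had their highest level at the site nearest the end, 4.76% and 5.56%. The site of Ptprt was 5014 nt from the end, just outside the last 5 kb.

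Other receptor genes had few sites. Ptpra, an activator of Src kinases, had 4, including 1 at 5% that lay 1816 nt past the RefSeq end of the gene. At least 1 of the Ptpra sites lies under the opposite-strand gene 4930473A02Rik. Ptprs and Ptprf, the LAR-group relatives of Ptprd, had 3 and 1. Ptprc (CD45, a leukocyte marker that microglia carry) had 1 site at 7.69%, and 3 of 6 microglial markers had a site. Ptprn and Ptprn2, proteins of dense-core vesicles without phosphatase activity, had 0, as did Ptpro and Ptprr. Ptprcap meets the name rule but encodes a partner of CD45 and not a phosphatase, and had 0 sites.

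**Figure D2:**
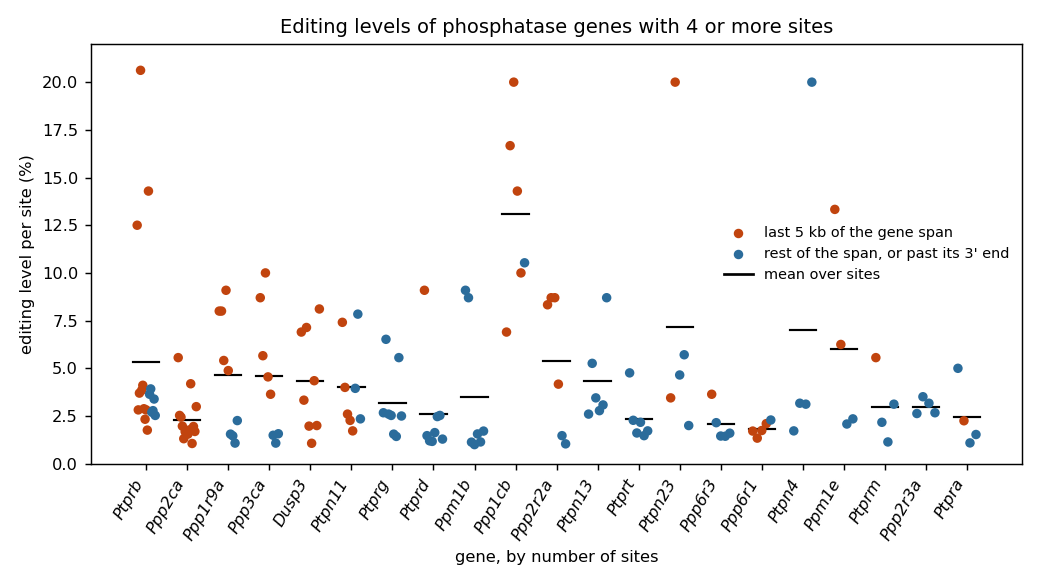
Editing level (percent) of every site in the 21 phosphatase genes with 4 or more sites, ordered by number of sites; black bars are means over sites. Sites in the last 5 kb of the span (red) stand above the others (blue) in genes such as Ppp1r9a, Ppp3ca, Ppp2r2a and Ptprd, whereas the highest site of Ptpn4, at 20.0%, lies outside that stretch.

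Non-receptor tyrosine phosphatases had 35 sites in 11 of 17 genes, at a median of 3.95%. Ptpn11 (SHP2), which carries growth factor signals to the Ras pathway, led with 8 sites at 4.02% ± 2.37. Its levels near the end (1.72% to 7.41%) and elsewhere (2.35% to 7.84%) overlapped. Ptpn13 had 6 sites from 2.60% to 8.70%, all at least 10228 nt from the 3′ end. Ptpn23 (HD-PTP, a protein of endosomal sorting) had 5 sites, 1 of them at 20.0% and the rest from 2.00% to 5.71%. Ptpn4 had 4 sites, with 20.0% at 631 nt from the 5′ end and 1.72% to 3.17% at the others. Ptpn9 had 3, of which 20.0% and 8.70% were near the end, both under the opposite-strand gene Gm10658. Ptpn1 (PTP1B, a brake on insulin and leptin receptors) had 3 sites at 5%, 1.02% and 1.55%. Ptpn5 (STEP, the striatum-enriched neuronal phosphatase) and Ptpn6 (SHP1) had 0 sites.

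DUSP genes had 15 sites in 6 genes, and 8 of the sites were in Dusp3. Dusp3 (VHR, chromosome 11, 101971141 to 101987013), which acts on MAP kinases, had all 8 between 2107 and 3529 nt from the 3′ end, at 1.07% to 8.11% (mean 4.36% ± 2.71). Dusp6, a cytoplasmic MAP kinase phosphatase, had 3 sites within 103 nt at 2.44%, 2.50% and 8.33%. Dusp16, which acts on JNK, had 1 site at 15%, Dusp8 1 at 10.0%, Dusp7 1 at 5.88% and Dusp11, an RNA phosphatase in spite of its name, 1 at 2.63%. The other 17 genes, among them the nuclear MAP kinase phosphatases Dusp2, Dusp4 and Dusp5, had 0.

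**Figure D3:**
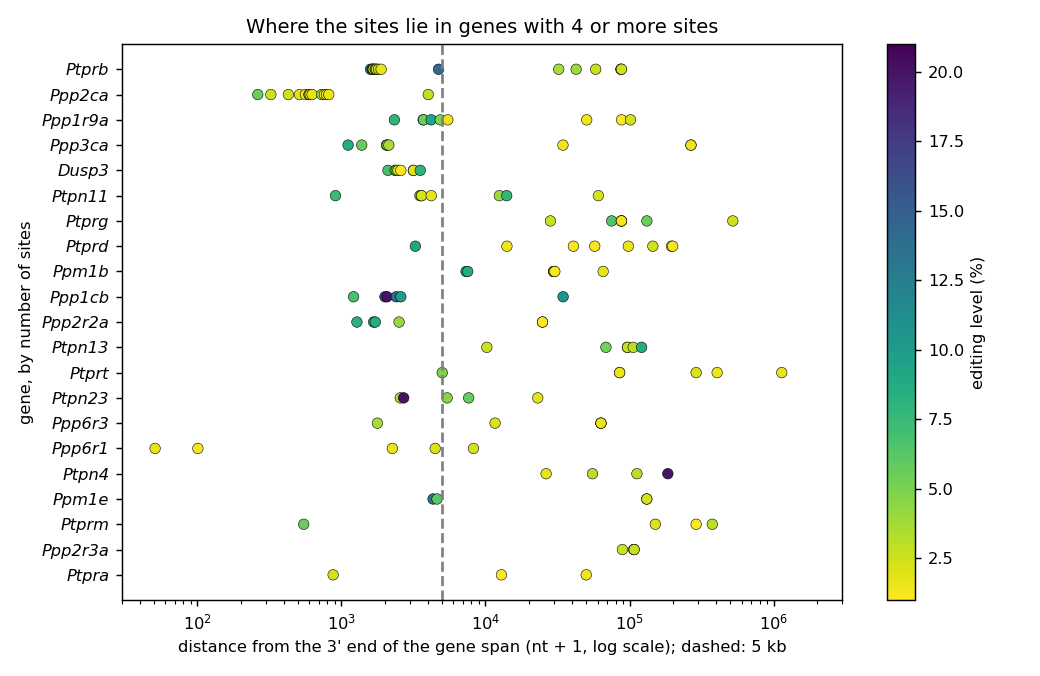
Distance of each site from the 3′ end of the gene span (nt, log scale) in the 21 genes with 4 or more sites, coloured by editing level (percent); the dashed line marks 5 kb, and the site of Ptpra past its RefSeq end is not drawn. Ppp2ca and Dusp3 lie wholly to the left of the line, Ptprg, Ppm1b, Ptpn13, Ptprt, Ptpn4 and Ppp2r3a wholly to the right.

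Sites of the members were placed along genes much as in the list at large. Of 248 member sites inside a span, 120 lay in the last 5 kb (48.4%, exact 95% interval 42.0% to 54.8%), beside 49.7% of all sites. The share was 80.0% for DUSP (12 of 15), 62.5% for PP1 catalytic (5 of 8), 62.2% for PP2A (23 of 37) and 58.0% for PP1 regulatory genes (29 of 50). It was 31.4% for non-receptor PTP (11 of 35), 30.9% for receptor PTP (17 of 55) and 23.5% for PPM1 genes (4 of 17). For calcineurin the share was 66.7% (6 of 9) and for PP4, PP5 and PP6 59.1% (13 of 22). In a span shorter than 5 kb every site inside it lies in the last 5 kb by definition. Such spans belong to the PP1 regulatory genes Ppp1r15a (3 sites), Ppp1r3d, Ppp1r3c and Ppp1r14b (2 each), Ppp1r14a and Ppp1r35 (1 each). Dusp6 (3 sites) also has one, so the shares of these 2 classes are raised by short genes. The median span of the genes with sites was 16147 bp in DUSP, 67252 bp in PPM1 and 150939 bp in receptor PTPs. For calcineurin it was 169843.5 bp, from 2 genes only, and 8 of the 9 calcineurin sites were in Ppp3ca. The part of gene length in these shares was not tested. Of the 51 members with at least 2 sites inside the span, 14 had all of them in the last 5 kb and 16 had none there. Ppp1r15a, Ppp1r3d, Ppp1r3c, Ppp1r14b and Dusp6 are among the 14 by definition.

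In most genes with sites in both stretches, those near the 3′ end had the higher levels. The median was 4.17% over 120 terminal sites and 2.57% over the other 128. Sites were present in both stretches in 21 members, and 16 of those had the higher mean in the last 5 kb (76.2%, beside 70.9% of the 1619 such genes in the list). The exact interval of the member share ran from 52.8% to 91.8% and covered that of the list. In 13 of the 21 (61.9%) every terminal site was above every other site of the gene, beside 45% of all such genes. Here the exact interval ran from 38.4% to 81.9% and also covered the list share. In most of the 13 genes 1 of the stretches held only 1 site, so this order rests on few sites. The median difference was 3.04 percentage points in the members and 1.36 over all such genes. The difference within a gene was largest in Ptpn9 (9.59 points), Ptpn23 (7.605) and Ppm1e (7.575), each with 2 terminal sites. In Ptpn23 the levels of the 2 stretches overlapped. The difference was 7.41 points in Ptprd, which had 1 terminal site, 6.22 in Ppp2r2a, 5.49 in Ppp1r9a and 5.13 in Ppp3ca. The opposite order held in 5 members: Ppp6r1, Ptpn11, Ppp1r12c, Ppp1r10 and Ppp2r2d, the last with 4.08% near the end and 12.5% elsewhere (1 site each). No listed level is under 1%, and calling a low level takes more reads than calling a high one. Coverage along the genes was not measured, and its part in this difference was not tested.

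**Figure D4:**
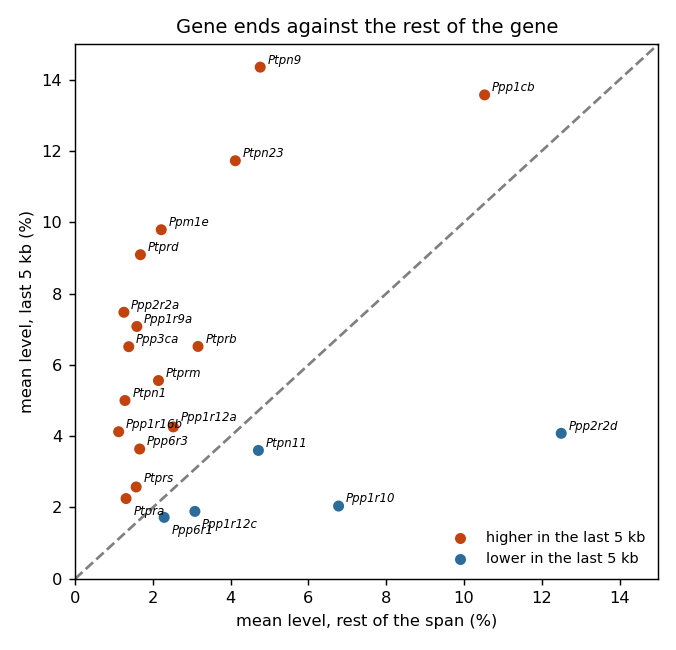
Mean editing level (percent) of the sites in the last 5 kb of the span against that of the remaining sites, for the 21 phosphatase genes with both; points above the dashed line of equality (16 genes) are higher near the 3′ end. Ptpn9, Ptpn23, Ppm1e, Ptprd, Ppp2r2a, Ppp1r9a and Ppp3ca lie far above the line, and Ppp2r2d far below it.

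Few sites were close to the start of the gene. Counting spans from 20 kb upwards, 14 of 207 member sites fell in the first 1 kb (6.76%, beside 6.05% of all sites in spans of that size). Over genes of any length these were 23 sites in 19 genes, with a median of 2.50% and a range of 1.38% to 20.0%. The highest were Ptpn4 (20.0%), Ppp1r3d (18.2%), Ppp1r35 (16.7%), Ppp1cb (10.5%) and Dusp8 (10.0%), whose site lies under the opposite-strand gene Gm32786. Ppp1r35 and Ppp1r3d have spans of 1207 and 3258 bp, so that the first and last stretches overlap there. The Dusp11, Ppp1r18 and Ppp2r5c sites whose sequences are printed above belong to this group.

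Close neighbours within the same gene were common. Of the 250 sites, 77 (30.8%, exact 95% interval 25.1% to 36.9%) had another site of the same gene within 100 nt, beside 22.8% of all sites. Only 2 genes held many of the 77: 13 were in Ppp2ca and 10 in Ptprb. Without Ptprb the share was 28.8%, and the share without both genes was not computed. Sites of one gene share their reads and are not independent, so the interval is too narrow. The 77 sites formed 27 runs in 22 genes, 17 of them plain pairs. The runs of Ptprb and Ppp2ca were the longest. A stretch of 300 nt with 10 or more sites occurred in 9 of the 6929 genes of the list, Ptprb among them, and a stretch of 600 nt with 13 or more in 7, Ppp2ca among them. Their levels differed: the run of Ptprb included 12.5% and 20.6%, whereas no site of Ppp2ca was above 5.56%. A further 11 runs lay over 5 kb from the end, and their highest level was 9.38%, in Ppp1r10.

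**Figure D5:**
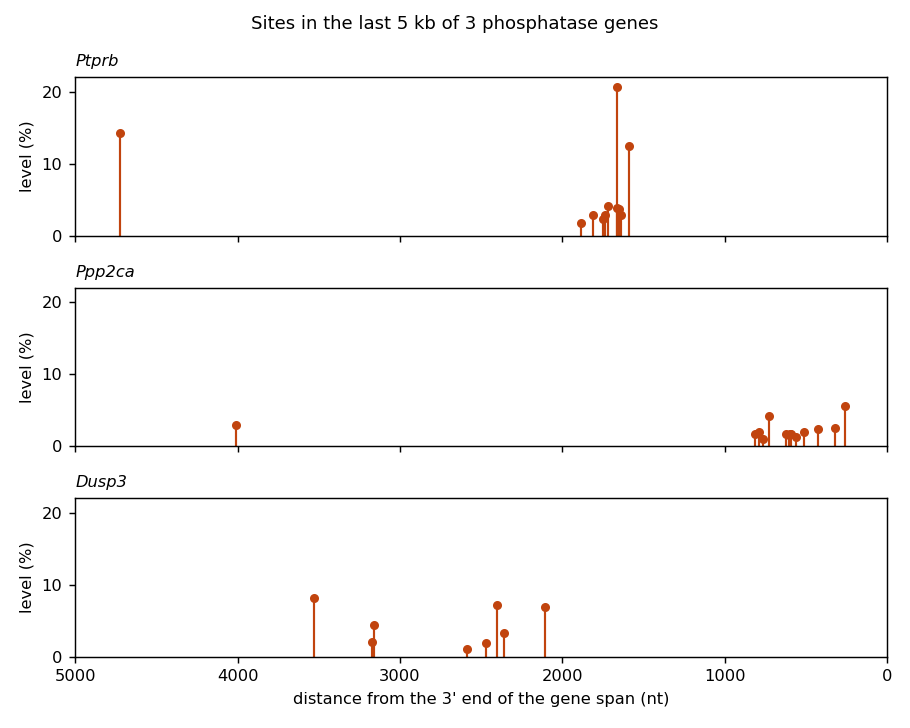
Editing level (percent) of each site in the last 5 kb of Ptprb, Ppp2ca and Dusp3, by distance from the 3′ end of the span (nt). In Ptprb 10 sites crowd between 1593 and 1888 nt, in Ppp2ca 13 sites lie between 262 and 817 nt, and in Dusp3 the 8 sites are spread from 2107 to 3529 nt.

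The 10 highest member sites were spread over 9 genes. After Ptprb at 20.6% came Ppp1cb, Ptpn23, Ptpn4 and Ptpn9 at 20.0% each. Ppm1l and Ppp1r3d followed at 18.2%, then Ppp1cb again, Ppp1r35 and Ptprj at 16.7%. Ptprj, a receptor phosphatase, had other sites at 2.90% and 1.38%, and Ppp1r35, a protein of centrosomes, had no other site. The same levels recurred in different genes: 20% at 4 sites in 4 genes, 12.5% at 4 sites in 4 genes, 9.09% at 5 in 5 and 8.70% at 7 in 6. Coverage is not listed, so the order of these sites has no known error and close ranks cannot be told apart. No member site was above 20.6%, while the highest level of the list was 94.9%.

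Partners and targets of these phosphatases were also in the list. Among phosphatases with other names 20 of 34 genes had a site, led by Phlpp1, which acts on Akt (8 sites, 1.91% ± 1.04), Ctdspl (6, 8.96% ± 3.90) and Ilkap (5, 2.48% ± 1.75). Of the PP1 partners 8 of 12 were listed, led by Rif1 and Phactr2 with 6 each and Akap11 with 5. For PP2A partners and inhibitors the count was 12 of 18, led by the inhibitor gene Set (6 sites, 3.55% ± 2.76) and the striatin gene Strn3 (5). Calcineurin regulators and substrates reached 9 of 14, with 4 sites each in Nfatc3 and Cabin1, 3 in Nfatc1 (11.9% ± 4.14) and 3 in Crtc3. None of the calcineurin inhibitors Rcan1, Rcan2 and Rcan3 and not Akap5, the anchor of calcineurin in spines, had a site. MAP kinases and their kinases were listed in 10 of 17 cases, with 5 in Map2k7 and 2 each in Mapk14 and Map2k4. Among tyrosine phosphorylation partners 16 of 20 had a site, led by Gab1, the docking protein that binds SHP2 (12 sites, 3.40% ± 4.34), Stat3 (7) and Abl2 (7). Each of these shares is above the 28.3% of all protein-coding genes, which includes genes the cortex does not express. The median level per site ran from 2.62% for the PP2A partners to 5.88% for the calcineurin list.

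Markers of the sorted cells and of others frame these values. Of 8 neuronal markers 5 had a site (Mapt, Map2, Syt1, Slc17a7 and Snap25, 16 sites), and Rbfox3, which encodes NeuN, Gad1 and Gad2 had 0. Of 6 astrocyte markers 5 had a site, 140 sites in all, and of 6 oligodendrocyte markers 5, with 37. Both sets, and the endothelial and pericyte set with 57, held more sites than the neuronal markers, and the 6 microglial markers held 14. The sorting for NeuN therefore does not show that a member site is neuronal. Several phosphatases act in every cell type, and the list does not say from which cells the RNA of a site came.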

How the data were processed

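Both libraries of the 1 group entered as a single table. The deposited table gives an editing fraction per single-base site, 1 value for both libraries, with chromosome, position, strand and gene name. Sites were called by the authors with the Bullseye pipeline, per the labels' series text, and the submitters' processing notes name STAR 2.7.5 and mm10. The settings, control and coverage minimum of the caller, and how libraries were merged, are not given in the sources. Fractions were multiplied into percent. All 81 member names matched a RefSeq symbol (GRCm38.p6), and 198 of 198 sites in the 67 members with a RefSeq promoter lay on the strand of the gene. Positions are 1-based, and distances run from the ends of RefSeq spans, which do not separate exons, UTRs and introns. Shares have exact (Clopper-Pearson) 95% intervals that cover counting only. No test was run: the table has no values per library, so nothing can be compared over samples. Medians, counts and shares stand beside the same value over all features.

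The members, classes and gene lists were chosen with earlier results of these data known. Named genes are members with 5 or more sites, up to 4 per class with the most sites, all catalytic subunits of PP1 to PP6, the 10 highest sites and up to 4 genes per list. Some genes of the lists are not reported here by name. Other members, those without a site included, were named after their values were seen. The planned motif search (DRACH, the m6A consensus) was limited to the 3 printed windows. It matched 1 place in that of Ppp1r18, which is not the GAC directly after the edited C. The count of GAC after the edited C was added after seeing the data. Distance and neighbour functions were tested on simulated data. Python 3.11.15, pandas 2.3.3, numpy 2.4.6, scipy 1.17.1 and matplotlib 3.10.9 were used.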

Additional observations from a re-analysis of the deposited data

How the results depend on the processing

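Of 32 alternative values of 7 results, 19 stayed within the interval of the main value (or, for counts, within 1.5 times) and 13 moved. With sites of at least 2% only, the median level of member sites was 4.17% (4.88% over all genes), 10 members had 5 or more sites, and 22.7% of member sites had a neighbour within 100 nt (17.5%). With sites of at least 5% only, 49 members remained in the list, 32.9% of phosphatase genes had a site (17.7% of all protein-coding genes), the median was 8.33% (8.70%), 67.5% of sites lay in the last 5 kb (61.0%), 1 member had 5 or more sites, and 10.1% had a neighbour (12.5%). The order of members against all genes thus turned for neighbouring sites, and the terminal share passed from below to above that of the list. The last 2 kb held 24.6% of member sites (29.8% over all) and the last 10 kb 56.0% (61.1%). Within 50 nt the neighbour share was 22.8% (16.3%), and the median of gene means was 4.17% (5%). A higher minimum removes low sites by construction; no other cause was tested. Adding Ptprz1 and Dusp1 back, leaving out Ptprb and matching by symbols only moved no value beyond these bounds. Leaving out a library was not possible because the table holds 1 value per site, and no paired analysis was possible because there is 1 group. The unknown depth limits every level, and without coverage no counting interval can be given.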
